A study of Homo sapiens with 20 samples.

Results

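The 10 genes described here belong to the transcriptional output and the core of the Hippo pathway: the YAP and TEAD target genes *CCN1*, *CCN2*, *ANKRD1*, *AMOTL2*, *LATS2* and *AJUBA*, the coactivators *YAP1* and *WWTR1* (which encodes TAZ), and the DNA-binding partners *TEAD1* and *TEAD2*. They were taken by name, through their Ensembl identifiers, and all 10 were found among the 60623 identifiers listed for pancreatic progenitors (PPs) and the 60624 listed for human islet-like organoids (hILOs). The cells came from MEL1, a human embryonic stem cell line, either wild type (WT) or carrying an *ALKBH5* knockout made with CRISPR-Cpf1 (A5-KO). The paper gives the line as the reporter MEL1 INS-GFP/W, in which the cell's own insulin promoter drives green fluorescent protein. *ALKBH5* encodes a demethylase that removes m6A, a methyl mark on mRNA. Untreated PPs (0 h) and PPs held in actinomycin D (Act D, which blocks transcription) at 1 μg/ml for 1, 2 or 3 h gave 16 libraries, 2 per genotype at each time, and hILOs of each genotype, taken through further differentiation media and not treated with Act D, gave 2 libraries each. The labels name 1 knockout line. The paper describes such libraries as biological replicates, and the labels do not say whether the 2 libraries of a group came from separate differentiations, so *p*-values measure only the spread between these libraries.

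In the Hippo pathway the MST and LATS kinases phosphorylate YAP and TAZ, which then stay in the cytoplasm. Unphosphorylated YAP and TAZ enter the nucleus, where they bind TEAD factors and raise the transcription of genes such as *CCN1* and *CCN2*. Some of these targets feed back, since *LATS2* and *AMOTL2* encode inhibitors of YAP. In the developing pancreas YAP and TEAD1 are known to act at progenitor enhancers, and YAP is lost as endocrine cells form.

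The promoters available for these genes were searched for letters that TEAD factors bind. GGAATG, searched on both strands (CATTCC on the other), occurred in the 250 bases before the start of transcription 3 times for *CCN2* and 2 times for *ANKRD1*, and once each at 1 of 2 starts of *AMOTL2* and of *AJUBA* and at the start of *YAP1*. Of all 35116 RefSeq promoters in the table used, 11.9% held at least 1 match in these 250 bases and 0.0826% held 3 or more. No match was found before the starts of *LATS2*, *WWTR1* and *TEAD2*, which says only that these letters are not in this window, and *CCN1* and *TEAD1* were not among the promoters used here. A match describes the sequence and is not a measured binding site. The 4 target promoters with a match are shown with the matches in capitals. They come from RefSeq on GRCh38.p14 and are read 5′ to 3′ on the strand of the gene. *YAP1* has a match and was not called lower in the first hour of Act D, and *LATS2* was called lower without a match in this window. With the 50 bases after the start included (300 in all), *LATS2* held 1 match, and 14% of all promoters held at least 1. Any link between a match and the course under Act D was not tested. The *AJUBA* stretch lies before an internal start of that gene, and the *AMOTL2* stretch before the more downstream of its starts.
CCN2 (chr6:131951373-131951622, minus strand): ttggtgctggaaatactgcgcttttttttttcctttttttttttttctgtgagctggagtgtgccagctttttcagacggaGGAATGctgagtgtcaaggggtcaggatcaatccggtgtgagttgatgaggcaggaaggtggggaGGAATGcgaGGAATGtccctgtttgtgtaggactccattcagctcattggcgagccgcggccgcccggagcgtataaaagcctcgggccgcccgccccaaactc
ANKRD1 (chr10:90921088-90921337, minus strand): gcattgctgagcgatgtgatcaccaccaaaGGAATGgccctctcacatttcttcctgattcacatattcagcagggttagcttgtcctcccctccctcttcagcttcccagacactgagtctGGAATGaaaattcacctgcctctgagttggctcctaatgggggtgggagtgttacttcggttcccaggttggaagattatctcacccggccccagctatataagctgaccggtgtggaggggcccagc
AMOTL2 (chr3:134374448-134374697, minus strand): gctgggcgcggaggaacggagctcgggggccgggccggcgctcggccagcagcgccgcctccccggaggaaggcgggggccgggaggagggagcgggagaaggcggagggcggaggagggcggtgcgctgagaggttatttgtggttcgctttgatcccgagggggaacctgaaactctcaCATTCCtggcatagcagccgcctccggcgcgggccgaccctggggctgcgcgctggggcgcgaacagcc
AJUBA (chr14:22976843-22977092, minus strand): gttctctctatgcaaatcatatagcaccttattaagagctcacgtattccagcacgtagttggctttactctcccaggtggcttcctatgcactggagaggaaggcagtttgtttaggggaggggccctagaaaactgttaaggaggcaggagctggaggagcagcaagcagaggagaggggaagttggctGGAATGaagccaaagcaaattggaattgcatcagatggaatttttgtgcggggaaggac

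In PPs before Act D all 10 genes were detected in every library (the lowest count of any of them in any of the 16 libraries was 107 reads and the highest 7150). The values are CPM, in which every library has the same total, and which for a comparison between genes were divided by the length of the gene's exons. In WT PPs at 0 h *YAP1* was the highest of the 10 on this scale, at 28.2 and 25.8 CPM per kb, followed by *CCN2* at 18.4 and 16.9. *ANKRD1* (15.1 and 12.6) and *TEAD2* (13.8 and 13.5) came next and overlapped each other. *CCN1* (5.12 and 4.68 CPM per kb) and *TEAD1* (4.50 and 3.98) were the lowest and did not overlap each other in WT. In A5-KO PPs the order was the same except that *ANKRD1* (23.0 and 19.4) stood above *CCN2* (15.8 and 12.9). *TEAD2* lay above *TEAD1* in CPM per kb in all 4 libraries at 0 h.

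The libraries matched their labels at the targeted gene: *ALKBH5* was at 149.3 and 171.9 CPM in untreated WT PPs against 19.1 and 18.8 CPM in A5-KO PPs, and in hILOs at 78.8 and 81.9 TPM (WT) against 4.16 and 3.42 TPM (A5-KO). In WT PPs *ALKBH5* itself went down under Act D, to 48.3 and 33.7 CPM at 3 h. Depth was even, at 30516384 to 35206514 reads per PP library. The TPM of hILOs keeps no record of depth. Of 8 progenitor markers, 7 had a mean of at least 1 CPM in PPs of both genotypes at 0 h (*PTF1A* was below), and the endocrine markers *INS* and *GCG* were at 0 in all 4 of these libraries. All 7 endocrine markers were above 1 TPM in hILOs. The 2 WT libraries at 2 h differed from each other more than those of any other group, with a median log2 difference of 0.196 over genes of at least 10 CPM (0.066 to 0.147 in the other PP groups).

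The first comparison asked whether the loss of *ALKBH5* changed these genes in untreated PPs. *ANKRD1*, which encodes a nuclear ankyrin-repeat protein and is a classical YAP target, was at 27.1 and 22.6 CPM in WT PPs and at 41.2 and 34.7 CPM in A5-KO PPs. Both A5-KO libraries lay above both WT libraries. On the log2(CPM + 1) scale the gene rose by 0.59 (SE 0.13, limma adjusted *p* = 0.038), and it was the single member called higher, where 1.57% of the 13911 genes tested were called higher. A call here and below means an adjusted *p* under 0.05 over all genes tested and a change over 1.5-fold (for differences between changes and for slopes, the adjusted *p* alone). The call was not firm: with edgeR, DESeq2 or median-of-ratios scaling the adjusted *p* was 0.022, 0.0024 and 0.019 but the log2 change (0.58, 0.58 and 0.56) fell just short of 1.5-fold, and without WT replicate 2 or A5-KO replicate 1 it was 0.47 in both cases with an adjusted *p* of 0.26 and 0.12. The summed mesenchyme markers were at 119.8 to 128.1 CPM in WT and 210.9 to 214.7 CPM in A5-KO PPs (7 of 8 at a mean of at least 1 CPM in both), and 6 hepatocyte markers summed to 1015 to 1064 against 1772 to 1816 CPM; their part in the *ANKRD1* difference was not tested. In bulk RNA, more cells of a type and more RNA per cell cannot be told apart.

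No member was called lower in A5-KO PPs at 0 h by limma, edgeR or DESeq2 (1.13% of all genes were called lower by limma). In that direction 2 had an unadjusted *p* under 0.05 with limma, as did 1153 of the 13911 genes tested. *WWTR1*, the TAZ gene, was at 89.9 and 84.1 CPM in WT and at 75.3 and 66.8 CPM in A5-KO PPs, a log2 difference of -0.29 (SE 0.09, adjusted *p* = 0.13 in limma). *CCN2*, a secreted matricellular protein also called CTGF, was at 42.9 and 39.5 CPM against 37.0 and 30.3 CPM, likewise -0.29 (SE 0.12, adjusted *p* = 0.22 in limma). For both genes the groups did not overlap, but neither difference passed the test over all genes with limma. With DESeq2 *WWTR1* differed by -0.33 with an adjusted *p* of 0.041, under 1.5-fold, and with edgeR by -0.33 with an adjusted *p* of 0.051. *YAP1* was at 177.9 and 162.5 CPM in WT and 200.6 and 185.0 CPM in A5-KO PPs, a difference of 0.18 (SE 0.08, limma adjusted *p* = 0.27). The remaining 6 genes (*CCN1*, *AMOTL2*, *LATS2*, *TEAD1*, *TEAD2* and *AJUBA*) differed by between -0.16 and 0.06 on the log2 scale, with limma adjusted *p* from 0.55 to 0.99. The median difference of the 10 genes was -0.04, against 0.03 over all genes tested.

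In hILOs the same comparison gave changes in both directions. In WT hILOs *YAP1* stood at 72.9 and 70.7 TPM, above the 49.5 and 45.6 TPM of the A5-KO libraries. It fell by 0.59 on the log2(TPM + 1) scale (SE 0.06, limma adjusted *p* = 0.015). *TEAD2* went from 14.4 and 15.6 TPM to 9.14 and 7.73 TPM, a fall of 0.76 (SE 0.12, limma adjusted *p* = 0.033). These 2 of 10 genes were called lower, where 4.09% of the 17300 genes tested were. *ANKRD1* was the single gene called higher (2.7% of all genes were): from 26.6 and 28.4 TPM in WT it went to 42.6 and 43.8 TPM in A5-KO hILOs, a rise of 0.63 (SE 0.07, limma adjusted *p* = 0.014).

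*CCN1*, which encodes the matricellular protein CYR61, stood at 23.0 and 26.6 TPM without the knockout and 38.1 and 36.3 TPM with it, a difference of 0.57 (SE 0.10) that passed the adjusted *p* in limma (0.035) but not 1.5-fold. *CCN2*, its close relative, stood at 23.5 and 26.0 TPM against 20.9 and 17.6 TPM (-0.35, SE 0.12, limma adjusted *p* = 0.13). The pair thus lay on opposite sides of 0, *CCN1* higher in both A5-KO libraries and *CCN2* lower in both. *AMOTL2*, whose product holds YAP at cell junctions, was at 20.2 and 20.5 against 16.3 and 16.2 TPM (-0.31, SE 0.08, limma adjusted *p* = 0.075).

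*AJUBA*, a LIM protein that restrains LATS kinases, was the highest of the 10 in WT hILOs at 80.6 and 78.4 TPM and stood at 73.6 and 63.4 TPM in A5-KO (-0.22, limma adjusted *p* = 0.19). *LATS2* (9.41 and 10.2 against 11.4 and 10.1 TPM) and *TEAD1* (2.55 and 3.57 against 3.47 and 4.88 TPM) overlapped between the genotypes. *WWTR1* differed by more between the WT libraries (10.9 and 5.30 TPM) than from A5-KO (9.68 and 9.67 TPM), so no difference could be measured. Over the 10 genes the median difference was -0.05, against -0.06 over all genes.

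The 3 hILO calls rested on all 4 libraries: without any 1 of them none of the 3 was called, with adjusted *p* of 0.074 to 0.081 for *ANKRD1*, 0.059 to 0.089 for *YAP1* and 0.083 to 0.15 for *TEAD2* and the direction kept. Scaling by median-of-ratios or by quantiles brought *CCN1* past 1.5-fold (0.63 and 0.62) and *YAP1* below it (-0.52 and -0.56). Summed mesenchyme markers were at 6.99 to 14.5 TPM in WT and 41.5 to 47.9 TPM in A5-KO hILOs (3 and 4 of 8 at a mean of at least 1 TPM, with *COL1A1*, *PDGFRA*, *PDGFRB* and *DCN* below it in both), and 6 hepatocyte markers at 19564 to 19914 and 31939 to 32219 TPM. The 7 endocrine markers summed to 34423 to 36777 TPM in WT and 26485 to 27698 TPM in A5-KO, and 4 duct markers to 644.3 to 655.1 and 904.4 to 942.1 TPM (4 and 2 at a mean of at least 1 TPM). The part of these marker groups in the differences was not tested.

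The Act D course then followed how much of each RNA remained after the drug was added. The 10 genes fell into 2 sets. *YAP1*, *WWTR1* and *TEAD2* held between 81.4% and 117.1% of their 0 h value in every later library, whereas the 6 targets and *TEAD1* lost much of theirs within 1 h. CPM are shares of the reads that remain, so a gene that is lost as fast as the average would appear level. In WT the means of the 6 targets and *TEAD1* were higher at 3 h than at 1 h, so they do not give a steady rate of loss. Whether the block of transcription held was not tested.

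**Figure D1:**
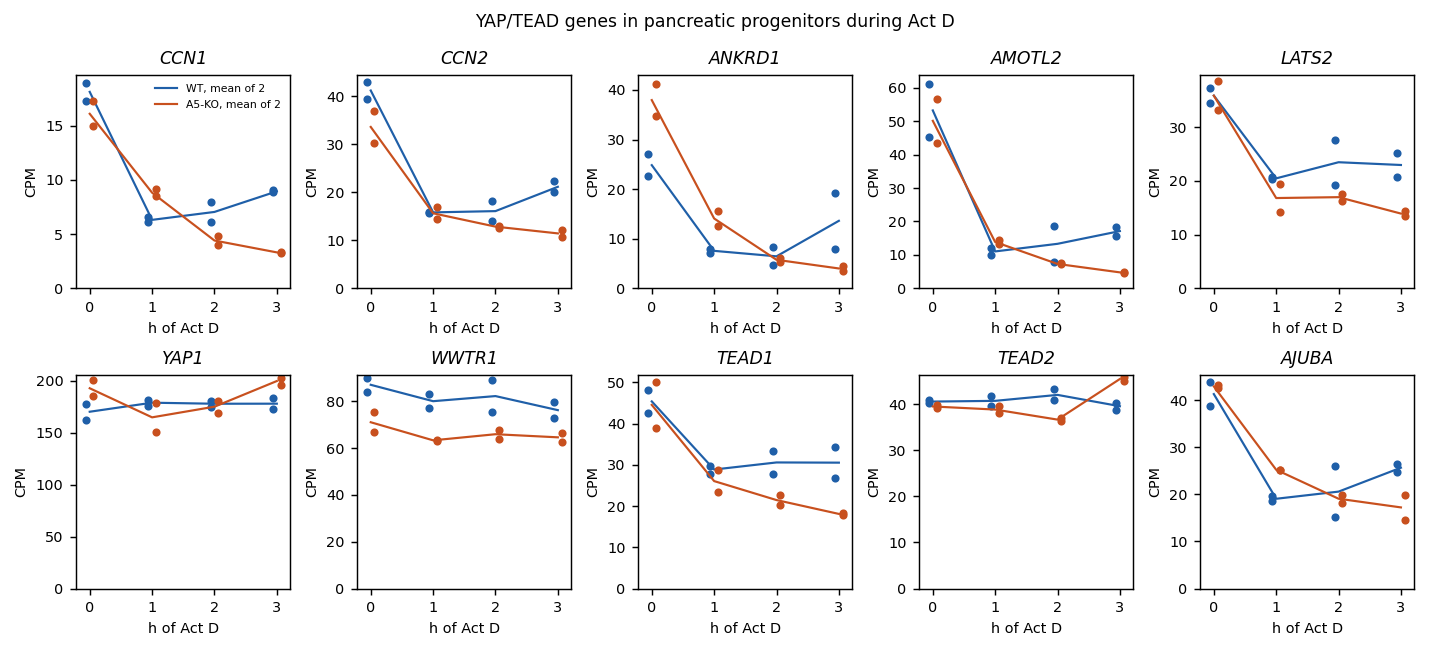
CPM of each gene (vertical axes, from 0) against hours of Act D in WT and A5-KO PPs; each point is 1 library, shifted slightly sideways by genotype, and lines join the means of 2. The targets and *TEAD1* drop within 1 h in both genotypes, and at 3 h the A5-KO means of these 7 lie below their means at 1 h while the WT means lie above theirs.

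In WT PPs 7 of the 10 genes fell between 0 and 1 h, where 15.4% of the 13620 genes tested were called lower. *AMOTL2* fell the most of the 10, from 61.2 and 45.3 CPM to 9.98 and 12.1 CPM, a log2 change of -2.25 (SE 0.28, limma adjusted *p* = 5.4e-05, on log2(CPM + 0.1)). *ANKRD1* fell from 27.1 and 22.6 to 7.15 and 7.94 CPM (-1.70, SE 0.32), *CCN1* from 19.0 and 17.3 to 6.09 and 6.54 CPM (-1.51, SE 0.18) and *CCN2* from 42.9 and 39.5 to 15.96 and 15.65 CPM (-1.38, SE 0.15). For these 4 genes every 1 h library lay far below every 0 h library.

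*AJUBA* fell from 43.9 and 38.7 to 19.6 and 18.5 CPM (-1.11, SE 0.19). *LATS2*, the kinase that YAP induces and that inhibits YAP, fell from 37.3 and 34.6 to 20.3 and 20.7 CPM (-0.81, SE 0.17), and *TEAD1* from 48.2 and 42.5 to 27.9 and 29.8 CPM (-0.65, SE 0.16). The limma adjusted *p* of these 7 genes ran from 2.5e-05 (*CCN2*) to 0.0067 (*TEAD1*). The *TEAD1* call was lost with edgeR, DESeq2 and median-of-ratios scaling, which put it under 1.5-fold (each -0.51 or -0.52), and without WT 0 h replicate 1 (-0.56, adjusted *p* = 0.093) or WT 1 h replicate 1 (-0.60, adjusted *p* = 0.066). No member was called higher with limma, edgeR or DESeq2 and none had a limma unadjusted *p* under 0.05 in that direction (0.301% of all genes were called higher).

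The same 7 genes fell in A5-KO PPs in the first hour, where 17.1% of all genes were called lower. *AMOTL2* fell from 56.7 and 43.6 to 14.5 and 13.2 CPM (-1.84, SE 0.28), *ANKRD1* from 41.2 and 34.7 to 12.6 and 15.6 CPM (-1.43, SE 0.32) and *LATS2* from 38.6 and 33.2 to 19.5 and 14.2 CPM (-1.10, SE 0.17). *CCN2* fell from 37.0 and 30.3 to 14.4 and 16.9 CPM (-1.10, SE 0.15), *CCN1* from 17.3 and 15.0 to 9.18 and 8.47 CPM (-0.86, SE 0.18), *TEAD1* from 50.2 and 38.9 to 28.8 and 23.3 CPM (-0.77, SE 0.16) and *AJUBA* from 42.7 and 43.2 to 25.2 and 25.3 CPM (-0.76, SE 0.19), with limma adjusted *p* from 1.2e-04 to 0.0066. Again the 0 h and 1 h libraries of these genes did not overlap. *CCN2*, *CCN1*, *AMOTL2* and *LATS2* were still called without A5-KO 0 h replicate 1, whereas *ANKRD1* (-1.30, adjusted *p* = 0.050), *AJUBA* (-0.77, adjusted *p* = 0.052) and *TEAD1* (-0.58, adjusted *p* = 0.047 but under 1.5-fold) were not. Calls in the higher direction numbered 0 of 10 with limma, edgeR and DESeq2, and 0 at a limma unadjusted *p* under 0.05, beside 1.37% of all genes.

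Every library has the same total in CPM, and the median gene moved by -0.13 in WT and -0.15 in A5-KO in this first hour. Scaling by median-of-ratios shifted those medians to 0.01 and -0.01, and cut the share of lower among all calls from 98.1% to 92.9% in WT and from 92.6% to 74.8% in A5-KO. On that scale the changes of the 7 genes were -2.12 to -0.51 in WT and -1.69 to -0.62 in A5-KO, and of the genes that had not passed the test on either scale *WWTR1* changed sign in WT (from -0.12 to 0.02) and *TEAD2* in A5-KO (from -0.025 to 0.125).

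Whether the genotypes differed in the first hour was tested directly as the difference of the 2 changes. No member passed in either direction with limma, edgeR or DESeq2. Of all genes 0% were called lower and 0.25% higher with limma, and 523 of 13620 stood lower and 679 higher at an unadjusted *p* under 0.05. At an unadjusted *p* under 0.05, 1 gene stood in each direction: *CCN1*, which kept 32.2% and 37.8% of its 0 h CPM at 1 h in WT and 53.2% and 56.6% in A5-KO PPs (difference 0.65, SE 0.25, limma adjusted *p* = 0.47), and *YAP1* (-0.30, SE 0.12, limma adjusted *p* = 0.50).

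Between 1 and 3 h the genotypes parted. In WT PPs no further fall was called: none of the 10 was called lower with limma, edgeR or DESeq2 or had a limma unadjusted *p* under 0.05 in that direction, where 0.0954% of all genes were called lower. In A5-KO PPs 3 genes fell again, where 16.9% of all genes were called lower. *ANKRD1* was at 7.97 and 19.2 CPM at 3 h in WT PPs, at or above its 1 h values (7.15 and 7.94), a log2 difference of 0.71 (SE 0.32, limma adjusted *p* = 0.64). In A5-KO it fell from 12.6 and 15.6 CPM at 1 h to 6.10 and 5.37 CPM at 2 h and 4.40 and 3.57 CPM at 3 h (-1.79 from 1 to 3 h, SE 0.32, limma adjusted *p* = 7.4e-04). The gene that began higher in A5-KO PPs thus ended below every WT library at 3 h.

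*AMOTL2* was at 7.93 and 18.7 CPM at 2 h and 15.8 and 18.5 CPM at 3 h in WT PPs (1 to 3 h 0.63, SE 0.28, limma adjusted *p* = 0.61), and it fell to 7.44 and 7.11 and then 4.60 and 4.90 CPM in A5-KO (-1.52, SE 0.28, limma adjusted *p* = 8.8e-04). *CCN1* stood at 6.16 and 7.93 CPM at 2 h and 8.86 and 9.04 CPM at 3 h in WT (0.50, SE 0.18, limma adjusted *p* = 0.37), and it fell to 4.82 and 4.00 and then 3.24 and 3.38 CPM in A5-KO (-1.39, SE 0.18, limma adjusted *p* = 7.4e-05). At 3 h the WT and A5-KO libraries of both genes were well apart, although at 1 h the A5-KO libraries had been the higher ones.

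At 3 h *CCN2* stood at 20.0 and 22.3 CPM in WT against 12.1 and 10.8 CPM in A5-KO PPs, *AJUBA* at 24.8 and 26.5 against 19.9 and 14.6 CPM, and *TEAD1* at 26.8 and 34.3 against 17.8 and 18.4 CPM. In A5-KO these 3 genes changed by -0.45, -0.56 and -0.52 from 1 to 3 h, which passed the adjusted *p* in limma (0.038, 0.039 and 0.022) but not 1.5-fold. Without A5-KO 1 h replicate 2 *TEAD1* was called (-0.67, limma adjusted *p* = 0.022), and without A5-KO 3 h replicate 1 *AJUBA* was (-0.78, limma adjusted *p* = 0.022). *LATS2* did not pass in either genotype (25.2 and 20.8 CPM at 3 h in WT, 13.4 and 14.5 CPM in A5-KO; changes of 0.16 and -0.25, limma adjusted *p* = 1.00 and 0.31). At 3 h the A5-KO libraries of each of these genes lay below its WT libraries.

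For 5 genes (*CCN1*, *CCN2*, *ANKRD1*, *AMOTL2* and *AJUBA*) the WT change from 1 to 3 h had a limma unadjusted *p* under 0.05 in the higher direction. So did 877 of the 13620 genes tested. With limma, edgeR or DESeq2 0 of 10 were called, beside 0.565% of all genes with limma. Without WT 3 h replicate 1, *ANKRD1* alone was called there (1.34, limma adjusted *p* = 0.037). In A5-KO *YAP1* changed by 0.28 from 1 to 3 h (179.0 and 150.6 CPM at 1 h, 203.1 and 196.4 CPM at 3 h, limma adjusted *p* = 0.024) and *TEAD2* by 0.23 (38.0 and 39.7 CPM at 1 h, 45.9 and 45.1 CPM at 3 h, limma adjusted *p* = 0.065). Both stayed under 1.5-fold, so 0 of 10 genes were called higher with limma, edgeR or DESeq2, beside 0.954% of all genes with limma. These 2 had a limma unadjusted *p* under 0.05, as did 1096 of the 13620 genes in that direction.

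**Figure D2:**
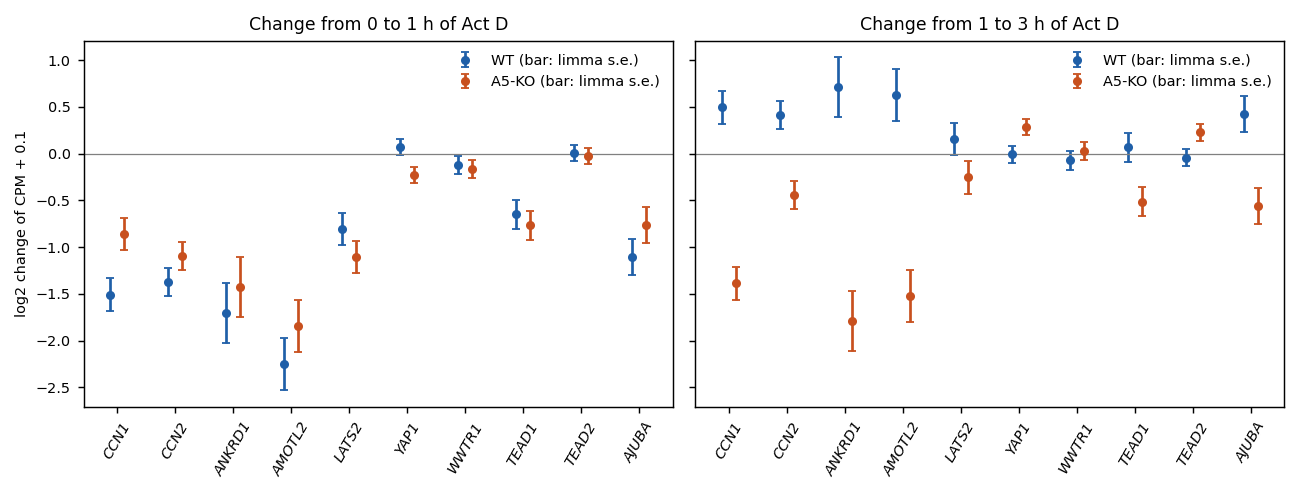
Log2 change of CPM + 0.1 (vertical axis) for each gene from 0 to 1 h (left) and from 1 to 3 h (right) of Act D, in WT and A5-KO PPs; points are fitted changes over 2 libraries per time and bars are limma standard errors. In the first hour both genotypes fall in the same 7 genes, and from 1 to 3 h the WT points of those 7 lie above 0 and the A5-KO points below it.

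The difference between the genotypes in the 1 to 3 h change was tested as an interaction. It was called lower in A5-KO for 5 of 10 genes, where 18.3% of all genes were called lower. All 5 are targets: *ANKRD1* differed by -2.50 on the log2 scale (SE 0.45, limma adjusted *p* = 0.0019), *AMOTL2* by -2.15 (SE 0.39, 0.0020), *CCN1* by -1.88 (SE 0.25, 5.8e-04), *AJUBA* by -0.99 (SE 0.27, 0.018) and *CCN2* by -0.86 (SE 0.21, 0.011). *TEAD1* (-0.59, SE 0.22, limma adjusted *p* = 0.071) and *LATS2* (-0.41, SE 0.25, limma adjusted *p* = 0.26) had the same sign without passing, and *WWTR1* was near 0 (0.10, SE 0.14, limma adjusted *p* = 0.67). The median over the 10 genes was -0.72, against -0.20 over all genes.

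The same 5 genes were called with edgeR, DESeq2 and median-of-ratios scaling, where their differences were -2.33, -1.98, -1.71, -0.81 and -0.68 in the last of these, in the order above. That scaling moved the median of all genes from -0.20 to -0.02 and the share of lower among all calls from 89.1% to 69%; for the A5-KO change from 1 to 3 h the shift was from -0.13 to 0.00 and the share from 94.7% to 84.4%. *AJUBA* was the weakest of the 5: with no filter on low values its adjusted *p* was 0.062, and it was also lost without either WT 1 h library (0.050 and 0.059), WT 3 h replicate 2 (0.058), A5-KO 1 h replicate 2 (0.051) or A5-KO 3 h replicate 2 (0.10). The last of these ended the *CCN2* call as well (-0.78, adjusted *p* = 0.054), leaving 3 genes. *TEAD1* was called in addition without either WT 2 h library (adjusted *p* = 0.042 in both cases) or without WT 3 h replicate 1 (-0.76, adjusted *p* = 0.030).

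In the higher direction limma called 0 of 10 genes (2.25% of all genes). *YAP1* (0.29, SE 0.12, limma adjusted *p* = 0.11) and *TEAD2* (0.27, SE 0.12, limma adjusted *p* = 0.14) had an unadjusted *p* under 0.05, as did 741 of the 13620 genes. Both were called with edgeR, DESeq2 and median-of-ratios scaling, at 0.44 to 0.47. All values of the course were relative to what remained in the library. The direction of the 5 target genes held with limma, edgeR, DESeq2 and median-of-ratios scaling, which are all relative in this way. An absolute scale was not tested.

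Summed over the course, the slope of log2 CPM on time was steeper in A5-KO for 7 of 10 genes but was called for none. The median difference was -0.23 per h over the 10 genes, against -0.07 over all genes. *ANKRD1* changed by -0.33 per h in WT and -1.09 per h in A5-KO (difference -0.77, SE 0.26, limma adjusted *p* = 0.097), *AMOTL2* by -0.47 and -1.10 per h (-0.63, SE 0.27, 0.18), *CCN1* by -0.29 and -0.77 per h (-0.48, SE 0.17, 0.11) and *TEAD1* by -0.17 and -0.41 per h (-0.25, SE 0.10, 0.15). These 4 had an unadjusted *p* under 0.05 with limma, as did 2725 of the 13620 genes tested in this direction. With edgeR and DESeq2 none of the 10 was called lower or higher. With limma 2.61% of all genes were called with a steeper and 0.0661% with a shallower slope in A5-KO, and no member had an unadjusted *p* under 0.05 in the shallower direction. Without WT 0 h replicate 1, *ANKRD1* (-0.96), *AMOTL2* (-0.86) and *CCN1* (-0.62) were called; without WT 2 h replicate 1, or without both WT 2 h libraries, *ANKRD1* alone was (-0.83 and -0.86).

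Half-lives, the time in which the fitted line through the 0 h value loses a factor of 2 in CPM, were computed for each replicate number. In A5-KO PPs *AMOTL2* had the shortest at 0.754 and 0.859 h in the 2 replicates, against 0.978 and 1.68 h in WT, and *ANKRD1* had 0.835 and 0.863 h against 1.14 and 2.77 h. *CCN1* had 1.2 and 1.28 h against 1.73 and 2.18 h. In all 3 genes both A5-KO values were the shorter ones.

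*LATS2* had 1.80 and 2.04 h in A5-KO against 3.15 and 3.91 h in WT, and *TEAD1* 1.85 and 2.40 h against 2.85 and 6.53 h. *CCN2* (1.53 and 1.80 h against 1.76 and 2.33 h) and *AJUBA* (2.15 and 1.83 h against 2.1 and 3.65 h) overlapped. *YAP1* had 34.0 and 47.9 h in A5-KO and no measurable loss in WT, *WWTR1* had 10.5 to 63.0 h over both genotypes, and *TEAD2* had a measurable loss in 1 WT replicate only (47.2 h). The long values exceed the 3 h course and say only that the gene's share of the reads changed little.

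For 6 of 10 genes the pair of half-lives in A5-KO lay wholly below the WT pair (*CCN1*, *ANKRD1*, *AMOTL2*, *LATS2*, *TEAD1* and *YAP1*), which was so for 41.9% of all genes, and for 0 of 10 it lay wholly above, which was so for 4.76%. *YAP1* is among the 6 because no loss was measured in WT. The half-life depended on the times used. From 0 and 1 h alone *CCN1* had 0.617 and 0.718 h in WT against 1.11 and 1.23 h in A5-KO, the opposite order, and *AJUBA* had 0.863 and 0.944 h against 1.32 and 1.30 h, while *LATS2* (1.15 and 1.35 h against 1.02 and 0.818 h) kept the shorter value in A5-KO. From a line over 1 to 3 h with its own intercept, no loss could be measured in either WT replicate of *CCN1*, *CCN2*, *ANKRD1*, *AMOTL2*, *LATS2* and *AJUBA*, whereas in A5-KO *ANKRD1* had 1.34 and 0.955 h, *AMOTL2* 1.23 and 1.42 h and *CCN1* 1.36 and 1.54 h.

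Short-lived mRNAs often carry AU-rich elements in the 3′ untranslated region (3′UTR), built around ATTTA in DNA letters, and m6A is placed most often within GGACT. Over the 12228 coding genes with these features the median transcript held 2 ATTTA in its 3′UTR and 3 GGACT in all. The principal transcripts of *CCN1* and *ANKRD1* held 4 ATTTA in 3′UTRs of 908 and 770 bases (4.41 and 5.19 per kb, median of all 1.75). *AMOTL2*, which fell the most of the 10 in the first hour, held 3 (1.27 per kb), and *CCN2* held 3 (2.76 per kb). *AJUBA* held 9 (3.97 per kb), *LATS2* 6 (3.27 per kb) and *TEAD1* 17 in 7515 bases (2.26 per kb). Of the genes whose CPM stayed level, *WWTR1* held 12 in 3570 bases (3.36 per kb), *YAP1* 9 (2.58 per kb) and *TEAD2* 1 (1.37 per kb). A link between these counts and the fall in CPM was not tested. *CCN2* held no GGACT in 2338 bases, a count of 0, and *ANKRD1* held 1 (0.56 per kb). *LATS2* held 8, *AMOTL2*, *AJUBA* and *TEAD1* 7 each and *CCN1* 5 (2.195 per kb, median 0.92). Among the genes whose CPM stayed level, *YAP1* and *WWTR1* held 4 each and *TEAD2* 2. The m6A signal itself was not analysed here. The 3′UTR windows of 30 bases shown hold 2 ATTTA each, in capitals (GRCh38, read on the strand of the gene). *CCN1* and *ANKRD1* fell in the first hour and *WWTR1* did not. Windows with 2 ATTTA were also found in *LATS2* and *TEAD1*, which fell as well. The windows shown do not stand for all genes that fell, since no such window of *AMOTL2*, *CCN2* or *AJUBA* held more than 1. Nor did any of *YAP1* or *TEAD2*, which did not fall.
CCN1 (chr1:85583676-85583705, plus strand): taaccATTTAataaagaaatATTTAcctaa
ANKRD1 (chr10:90912656-90912685, minus strand): tATTTAtttttatgtattcctgtttATTTA
WWTR1 (chr3:149519099-149519128, minus strand): atattATTTAtaatctatgaATTTAatctt

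Reads of some of the 10 genes could come from a neighbour, because the strand setting of the counting is not given in the sources used here. *CCN2* (ENSG00000118523, 131948176 to 131951372 on chromosome 6) shares 11.9% of its exon bases with the antisense *LINC01013*, *TEAD2* (chromosome 19, 49340595 to 49362457) 10.7% with *CD37*, *YAP1* (chromosome 11, 102110447 to 102233424) 10.1% with antisense genes and *WWTR1* (chromosome 3, 149517235 to 149736714) 9.05% with *WWTR1-AS1*. *AMOTL2* (chromosome 3, 134355347 to 134375479) shares 2.89% and *AJUBA* (chromosome 14, 22971177 to 22982551) 0.85%. *CCN1* (chromosome 1, 85580761 to 85584589), *ANKRD1* (chromosome 10, 90912096 to 90921087), *LATS2* (chromosome 13, 20973036 to 21061586) and *TEAD1* (chromosome 11, 12674421 to 12944737) share none.

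The rest of the pathway was read from 2 lists, 24 further Hippo components and 17 other published YAP/TAZ targets. In untreated PPs none of the 24 tested components and none of the 15 tested targets was called in either direction with limma, edgeR or DESeq2. Of all genes limma called 1.13% lower and 1.57% higher. With limma 2 components were lower and 3 higher at an unadjusted *p* under 0.05, and 3 targets in each direction. Of the 13911 genes tested 1153 were lower and 1531 higher at that limit. In hILOs 1 of 22 tested components was called higher in A5-KO, where 2.7% of all genes were. It was *MOB1B*, an activator of LATS kinases (0.66, SE 0.09, limma adjusted *p* = 0.024). Of 13 tested targets 1 was called lower, *ASAP1* (-0.78, SE 0.15, limma adjusted *p* = 0.044), where 4.09% of all genes were. The medians of components and targets in hILOs were -0.11 and -0.05, against -0.06 over all genes.

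In the first hour of Act D 4 of 24 components fell in WT PPs, where 15.4% of all genes were called lower: *LATS1* (-1.43, SE 0.22), *FRMD6* (-1.10, SE 0.22), *TAOK1* (-0.88, SE 0.18) and *TAOK2* (-0.87, SE 0.14), which all encode proteins at or upstream of the LATS step. Of the 15 targets 4 fell in WT as well (3 with DESeq2, without *NUAK2*): *NUAK2*, a kinase (-2.09, SE 0.67), *F3*, which encodes tissue factor (-1.66, SE 0.24), *FJX1* (-1.50, SE 0.35) and *GADD45A* (-0.92, SE 0.15). In A5-KO 5 components and 6 targets were called lower with limma (17.1% of all genes), 3 and 3 with edgeR and 3 and 4 with DESeq2, *NUAK2* the furthest at -2.91 (SE 0.67), with *LATS1* at -1.37 (SE 0.22) and *FRMD6* at -1.22 (SE 0.22). The list medians in WT were -0.25 for components and -0.28 for targets, against -0.96 for the 10 genes and -0.13 over all genes.

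From 1 to 3 h the change was lower in A5-KO than in WT for 6 of 24 components and 4 of 15 targets with limma, where 18.3% of all genes were called lower. With edgeR these were 4 and 3 (without *TAOK2*, *TEAD4* and *IGFBP3*), and with DESeq2 6 and 3 (without *IGFBP3*). *FRMD6*, which encodes a scaffold of the pathway, differed by -1.57 (SE 0.31, limma adjusted *p* = 0.0031), *LATS1* by -1.13 (SE 0.31, 0.018), *TAOK1* by -1.12 (SE 0.25, 0.0062), *TEAD4* by -0.85 (SE 0.26, 0.028) and *NF2*, the gene of the tumour suppressor Merlin, by -0.78 (SE 0.23, 0.027). *FJX1* differed by -2.0 (SE 0.49, limma adjusted *p* = 0.010), *F3* by -1.17 (SE 0.34, 0.025), *GADD45A* by -1.11 (SE 0.21, 0.0023) and *IGFBP3* by -0.30 (SE 0.10, 0.040). In the other direction, where limma called 2.25% of all genes, 1 component was called, *DCHS1*, a protocadherin (1.00, SE 0.23, limma adjusted *p* = 0.0076). That count was 2 components (*DCHS1* and *WWC2*) and 1 target (*CRIM1*) with edgeR, and with DESeq2 3 components (with *MAP4K4*) and 2 targets (with *NT5E*). The medians were -0.31 for components and -0.12 for targets, on either side of the -0.20 of all genes, and that of the 10 genes was -0.72.

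The genes whose course over the 16 PP libraries was most like the mean course of *CCN1*, *CCN2* and *ANKRD1* were *GTPBP4* (Pearson's *r* = 0.994), *HAPSTR1* (0.992), *ZNF207* (0.992), *C6orf62* (0.991) and *GSPT2* (0.99), out of 8911 other genes of at least 10 CPM. These correlations describe 16 libraries that share conditions, replicate by replicate, and the drop from 0 to 1 h is part of each of them.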

How the data were processed

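The 4 hILO libraries hold TPM and the 16 PP libraries CPM. The hILO TPM do not share a total: they sum to 924887 and 922614 in WT and to 897038 and 887320 in A5-KO. Per the paper's methods, fastp trimming, alignment to GRCh38 by HISAT2 (version 2.1.0 per the labels) and StringTie preceded the tables; the deposited TPM are scaled by gene length and library total, and the deposited CPM are each gene's share of the reads, by the authors, after removal of the ERCC spike-ins. The read counter, its strand setting and the annotation release are not given in the sources used here, and the spike-in conversion was not repeated. In every library 100% of the nonzero CPM values, after rounding, were whole multiples of 1 read (within 0.05), which gave back the reads.

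Genotypes and times were compared with limma (3.58.1, R 4.3.3; eBayes with a trend, Benjamini-Hochberg adjustment over all genes) on log2(TPM + 1), log2(CPM + 1) at 0 h and log2(CPM + 0.1) over the course, where the mean was 1 or more. A call needed an adjusted *p* under 0.05 and over 1.5-fold (interactions and slopes: adjusted *p* alone). Alternatives included edgeR (4.0.16) and DESeq2 (1.42.0) run on those reads (edgeR called 205 genes lower and 228 higher in A5-KO PPs at 0 h, limma 157 and 218). Half-lives came from lines through the origin over log2 ratios to 0 h. The code was tested on simulated data.

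The 10 genes, the lists and the alternatives were chosen with earlier results of these data known. Named genes are these 10, the targeted gene and, of the 2 lists, at most 5 called per direction with the largest change. For groups of 2, the smallest two-sided *p* of an exact permutation test is 0.33.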

Additional observations from a re-analysis of the deposited data

Results flagged for a closer look

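The change from 1 to 3 h of Act D differed between the genotypes by a test of the difference itself (an interaction in limma) for 5 of the 10 genes. The A5-KO change minus the WT change was -2.50 for *ANKRD1*, -2.15 for *AMOTL2*, -1.88 for *CCN1*, -0.99 for *AJUBA* and -0.86 for *CCN2* on the log2 scale, where 18.3% of all genes tested differed in this direction. The WT libraries at 2 h, which stood furthest apart as replicates, do not enter these contrasts except through the shared estimate of the spread, and without both of them these 5 genes and *TEAD1* (-0.59, adjusted *p* = 0.042) were called.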

How the results depend on the processing

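Of the 10 genes, the number called in hILOs (2 lower, 1 higher) became 0 and 0 with no filter on low values, 1 and 2 with median-of-ratios scaling or quantile normalization, and 0 to 0 in either direction when each library was left out in turn. The 1 gene called higher in PPs at 0 h became 0 with no filter, median-of-ratios scaling, edgeR, DESeq2 or all 16 libraries in one fit, and 0 to 1 with each library left out. Leaving out single libraries gave 4 to 7 genes for the first-hour fall in A5-KO PPs, 0 to 1 for a rise from 1 to 3 h in WT, 3 to 6 lower (the sixth was *TEAD1*) and 0 to 1 higher for the difference in the 1 to 3 h change, and 0 to 3 steeper slopes. For that difference, 2 genes were called higher with median-of-ratios scaling, edgeR and DESeq2 each. Without both WT 2 h libraries, an alternative chosen after seeing the data, 1 slope was called steeper. From 0 and 1 h alone 2 half-lives were shorter and 2 longer in A5-KO (18.1% and 13.4% of all genes), and from a line over 1 to 3 h with its own intercept 1 was longer (7.31%). With median-of-ratios scaling 5 of 10 were shorter, against 27.8% of all genes. The cause was not tested.

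Same-numbered libraries of the groups did not deviate together (correlations of -0.255 to 0.181), so the fits did not take the numbers as pairs. Half-lives and the percent kept divided each library by the 0 h library of the same number, a pairing by number only. With the replicate block 1 gene was called lower in hILOs (*TEAD2* was lost, adjusted *p* = 0.076), and no other count of called genes among the 10 changed. No alternative reversed a called value. A half-life had no value in 31 cases because the slope was not negative. With 2 libraries per group, the spread between them limits every comparison; TPM give no depth.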
